A study of Homo sapiens with 6 samples.

Results

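The genes described here encode 34 RNA-binding proteins of the splicing machinery: 17 heterogeneous nuclear ribonucleoproteins (hnRNPs) other than HNRNPU, 12 serine/arginine-rich splicing factors (SRSF1 to SRSF12), the SR-related proteins TRA2A and TRA2B, and the 3′ splice site factors U2AF1, U2AF2 and SF3B1. They were chosen by name, out of 20033 protein-coding genes of the reference, and all 34 were found in it. Every ATAC-seq summit inside one of these genes or within 2000 bp of either end was assigned to it, which gave 298 of the 356720 summits of the series. ATAC-seq cuts open chromatin with the transposase Tn5, and a summit is the base of strongest signal in a peak called from the cut sites.

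The libraries came from H1, a human embryonic stem cell line grown in mTeSR1 on Matrigel. All cells, controls included, received a short hairpin RNA by a virus packaged in 293T cells and were selected with puromycin. There were 2 libraries with shHNRNPU #1, 2 with shHNRNPU #2 and 2 with shLUC, a hairpin against luciferase, and the comparison was of 4 shHNRNPU with 2 shLUC libraries. HNRNPU is itself an hnRNP that binds RNA and scaffold-attached DNA in the nucleus, and the comparison asks how the chromatin of its relatives and partners looked when it was targeted. Nothing in the labels says whether repeats were separate cultures, so the tests measure only the spread between these libraries, which may be technical. Each sample is a pool of selected cells, and the degree of knockdown was not measured here. A hairpin acts on RNA, so the 2, 3, 2 and 2 summits of HNRNPU in the shHNRNPU libraries and the 2 and 2 in the shLUC libraries do not check it.

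The deposited lists held 52168 to 63519 summits per library. Read depth is unknown, scores were not scaled between libraries, and where no summit is listed the site may be closed or merely below the caller's threshold. The score of a summit was therefore turned into a percentile within its own library, so that the strongest summit of a library is at 100. The value used for a gene is the highest percentile among the summits in its window, called its best percentile.

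HnRNPs coat nascent transcripts and often keep exons out of the mRNA, whereas SR proteins bind exonic enhancers and recruit U1 and U2AF to the splice sites beside them. U2AF2 binds the polypyrimidine tract, U2AF1 the AG at the end of the intron, and SF3B1 holds the U2 snRNP at the branch point. Most of these genes are active in nearly all cell types, and many of them limit their own level through alternative exons that send their mRNA to decay. An open start is the usual state of such genes, and a summit shows accessibility, not how much RNA is made.

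The upstream sequences of 5 of the genes are given here because these genes come up in the results below. The sequences themselves were described and not tested. SRSF12 had a locus near its start that was called in both shLUC libraries only, SRSF6 and HNRNPK had the 2 largest differences of best percentile among genes whose groups did not overlap, SRSF5 had the largest displacement of its strongest summit, and TRA2B was the gene with a lower best percentile. SRSF12 is shown by the rule for genes with a lost locus near the start, and the other 4 were picked after their values had been seen. Each is the 250 bases before a listed gene start, from RefSeq on GRCh38.p14, 5′ to 3′ on the strand of the gene, with base 1 farthest from the start. They lie at chr6:89118072-89118321 on the minus strand (SRSF12), chr20:43457646-43457895 on the plus strand (SRSF6), chr14:69766892-69767141 on the plus strand (SRSF5), chr9:83980216-83980465 on the minus strand (HNRNPK) and chr3:185938015-185938264 on the minus strand (TRA2B). Capitals mark every match, on either strand, to the TATA box motif TATAAA, the CCAAT box motif CCAAT, the GC box motif GGGCGG, the ETS-type motif CGGAAG, the YY1-type motif ATGGCGG, the NRF1-type motif GCATGCG and the CREB-type motif TGACGTC.
SRSF12: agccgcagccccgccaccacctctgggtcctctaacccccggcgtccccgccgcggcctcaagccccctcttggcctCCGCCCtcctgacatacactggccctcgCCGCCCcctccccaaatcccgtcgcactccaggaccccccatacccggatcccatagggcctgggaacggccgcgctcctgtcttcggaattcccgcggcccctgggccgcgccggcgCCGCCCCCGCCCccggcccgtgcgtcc
SRSF6: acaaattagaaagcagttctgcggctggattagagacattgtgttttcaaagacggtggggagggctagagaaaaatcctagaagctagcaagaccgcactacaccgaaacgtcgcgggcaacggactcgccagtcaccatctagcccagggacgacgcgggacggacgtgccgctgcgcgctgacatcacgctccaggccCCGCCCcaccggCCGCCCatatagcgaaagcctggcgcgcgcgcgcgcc
SRSF5: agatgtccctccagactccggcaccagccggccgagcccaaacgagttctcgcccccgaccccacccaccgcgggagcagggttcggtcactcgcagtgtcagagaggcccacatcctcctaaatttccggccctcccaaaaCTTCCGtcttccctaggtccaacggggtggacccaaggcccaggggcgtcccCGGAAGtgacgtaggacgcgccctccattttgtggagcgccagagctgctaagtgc
HNRNPK: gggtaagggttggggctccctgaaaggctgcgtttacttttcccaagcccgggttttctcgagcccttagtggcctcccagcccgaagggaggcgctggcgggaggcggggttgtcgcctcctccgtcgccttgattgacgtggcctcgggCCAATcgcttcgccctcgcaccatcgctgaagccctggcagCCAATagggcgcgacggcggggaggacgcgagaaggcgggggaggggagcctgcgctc
TRA2B: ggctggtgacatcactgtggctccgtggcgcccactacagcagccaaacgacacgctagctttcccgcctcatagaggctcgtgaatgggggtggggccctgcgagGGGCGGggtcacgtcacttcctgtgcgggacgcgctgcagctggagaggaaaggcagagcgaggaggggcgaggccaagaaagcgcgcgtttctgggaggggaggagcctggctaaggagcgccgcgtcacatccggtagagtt

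In the SRSF12 stretch the capitals are 4 GGGCGG matches, at bases 78, 106, 224 and 230, and it holds 28 CG pairs. SRSF6 also had 28 CG pairs and had GGGCGG at bases 202 and 214. SRSF5 had CGGAAG at bases 143 and 195, and its strongest summit in the 4 shHNRNPU libraries lay between those matches, at base 180, 180, 166 and 180. A summit of shLUC repeat 2 also lay at base 180, with a percentile of 82.0, though it was not the strongest of that library in this gene. HNRNPK had CCAAT at bases 152 and 193, and TRA2B had a single GGGCGG at base 107. A match is only a run of letters and is not evidence that a factor was bound.

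Nearly all of the genes were open in every library. A summit was present in all 6 libraries for 33 of the 34 genes, against 77.1% of protein-coding genes, and the exception was U2AF1. In 28 genes every library had 1 or 2 summits, and in 9 genes the number was the same in all 6 libraries. No gene had fewer summits in all 4 shHNRNPU than in both shLUC libraries, and none had more. Over the 17335 protein-coding genes with a summit, 3.27% had fewer and 2.3% had more by the same rule. For every one of these genes the exact permutation test (two-sided, 15 choices of 2 libraries as controls) was above 0.05, as it must be, since its smallest possible p is 0.133. With a library left out, the genes with fewer summits were HNRNPD (without shHNRNPU #1 repeat 1), U2AF2 (without shHNRNPU #2 repeat 2), SRSF1, SRSF6 and U2AF2 (without shLUC repeat 1), or HNRNPA3, SRSF2, SRSF9 and SF3B1 (without shLUC repeat 2), and the gene with more was HNRNPAB (without shHNRNPU #2 repeat 1) or HNRNPDL (without shLUC repeat 1). Over all genes, 4.31% had fewer without shHNRNPU #1 repeat 1, 3.83% without shHNRNPU #2 repeat 2, 10.5% without shLUC repeat 1 and 10% without shLUC repeat 2, and 3.5% had more without shHNRNPU #2 repeat 1 and 6.05% without shLUC repeat 1.

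Summed over the 34 genes, the shHNRNPU #1 libraries had 48 and 52 summits, the shHNRNPU #2 libraries 42 and 50, and the shLUC libraries 55 and 51. The groups overlapped, at 48 ± 4.32 (SD, n = 4) and 53 ± 2.83 (SD, n = 2). As a share of each list, these windows held 0.0827% ± 0.00987 (SD, n = 4) of the shHNRNPU summits and 0.0858% ± 0.00378 (SD, n = 2) of the shLUC summits, and the difference of -0.00305 percentage points was smaller than the spread between the shHNRNPU libraries. It was 0.000562 without shHNRNPU #2 repeat 1, the library with the fewest of these summits.

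**Figure D1:**
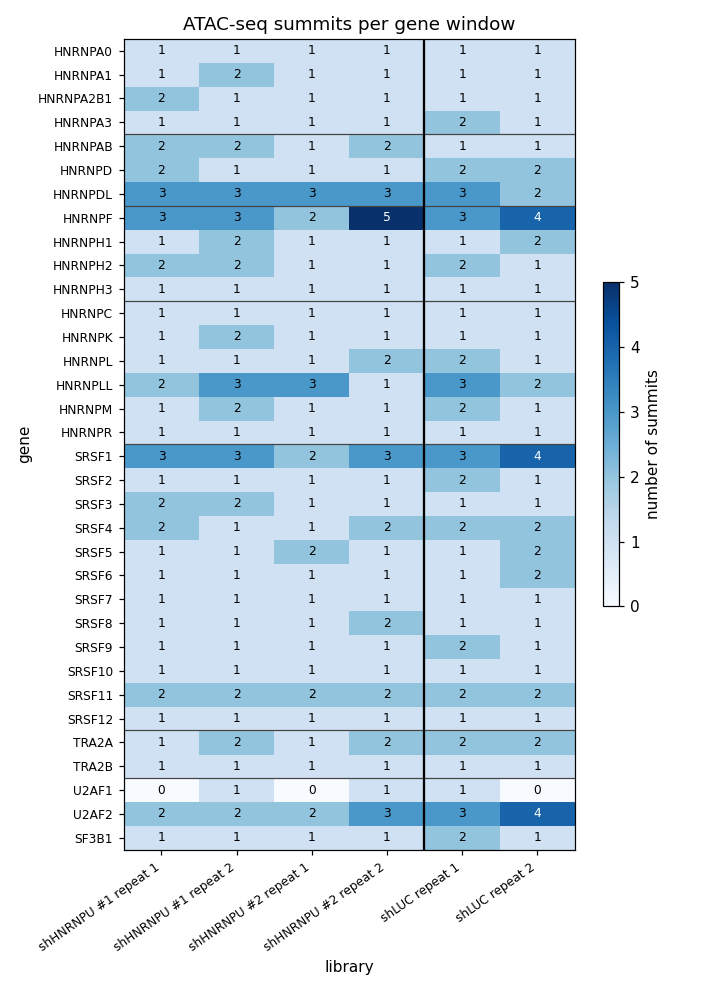
Number of summits inside each gene or within 2000 bp of it (cells, 0 to 5, darker is more) for the 34 genes (rows, thin lines separate the protein families) in the 6 libraries (columns, the thick line separates shHNRNPU from shLUC). Most cells hold 1 or 2, U2AF1 is at 0 in 3 libraries, and the row with the highest number, 5, is HNRNPF.

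The strongest summits of these genes ranked high. The median best percentile over the 34 genes was between 94.5 and 96.2 in the 6 libraries, and the median over all genes with a summit was between 81.7 and 85.4. In 21 of the 34 genes (61.8%) it was at least 90 in every library, against 21.5% of all genes with a summit. With shHNRNPU the mean best percentile was higher than with shLUC for 25 genes (73.5%) and lower for 9, and it was higher for 54.8% of all genes with a summit. The median difference was 0.664 percentage points of rank over the 34 genes and 0.419 over all genes.

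Groups did not overlap in best percentile for 6 genes. HNRNPA2B1, HNRNPD, HNRNPK, SRSF4 and SRSF6 were higher in all 4 shHNRNPU libraries (5 of 34, 14.7%), where 12.7% of all genes with a summit were, and TRA2B was lower (1 of 34, 2.94%), where 9.37% of all genes were. The share of higher genes was thus close to the background. Each of the 6 had an exact permutation p of 0.133, the smallest the design allows, and an adjusted p of 0.603 over all genes with a summit, so none passed the test. The count of higher genes was 9 without shHNRNPU #1 repeat 2, 12 without shLUC repeat 1 and 14 without shLUC repeat 2, where the background was 14.5%, 23.7% and 27.8%. The count of lower genes was 2 without shHNRNPU #1 repeat 1 or shHNRNPU #2 repeat 1, 3 without shLUC repeat 1 and 6 without shLUC repeat 2, where in that order 11.8%, 12.4%, 20.8% and 21.3% of all genes were lower.

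**Figure D2:**
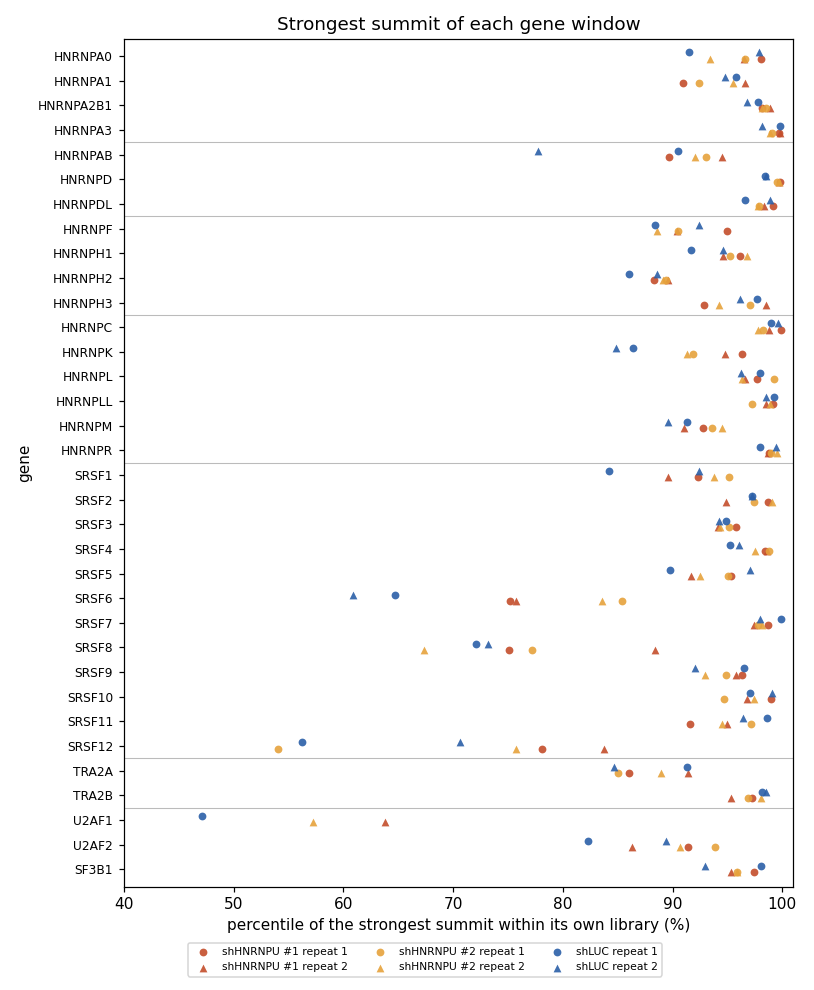
Percentile of the strongest summit of each gene window within its own library (x axis, in percent, from 40), for the 34 genes (rows) and 6 libraries (points: red shHNRNPU #1, orange shHNRNPU #2, blue shLUC, circle repeat 1, triangle repeat 2). Libraries without a summit are not drawn, which are 3 for U2AF1. Most genes sit above 90, and SRSF6 shows the widest distance between groups that do not overlap, 60.9 and 64.7 with shLUC against 75.2 to 85.4 with shHNRNPU.

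The hnRNP A/B proteins, among them HNRNPA1 and HNRNPA2B1, which repress exons and sort RNAs, had 1 or 2 summits per library. HNRNPA0 had 1 in each of the 6 libraries. HNRNPA1, HNRNPA2B1 and HNRNPA3 had 1 in 5 libraries and 2 in the remaining library. The best percentiles of HNRNPA2B1 were 98.2 and 98.8 with shHNRNPU #1, 98.5 and 98.1 with shHNRNPU #2, and 97.8 and 96.7 with shLUC. They did not overlap, and the means differed by 1.16 percentage points (98.4 ± 0.338, SD, n = 4, and 97.3 ± 0.739, SD, n = 2). The difference was 0.634 without shLUC repeat 2 and 1.86 with scores of at least 5. The summit lies 118 to 220 bp before the gene's start on chromosome 7, within 1000 bp of the start of CBX3, and could belong to either gene. Over the 4 genes the best percentile ranged from 91.0 to 99.8.

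In the D family, HNRNPD binds AU-rich mRNAs and speeds their decay, and HNRNPAB and HNRNPDL are its close relatives. HNRNPD had best percentiles of 99.8, 99.7, 99.5 and 99.7 with shHNRNPU and 98.5 in both shLUC libraries. All 4 shHNRNPU values were higher, with a difference of 1.23 (99.7 ± 0.117, SD, n = 4, and 98.5 ± 0.0235, SD, n = 2), in a gene whose start was among the strongest summits of every library. With scores of at least 5 the difference was 1.86 for HNRNPD, 12.4 for HNRNPK and 4.18 for SRSF4. HNRNPD had 2, 1, 1 and 1 summits with shHNRNPU and 2 and 2 with shLUC, the additional summit lying inside the gene, 13213 bp after the start. HNRNPDL was one of the 3 genes with most summits, with 3 in each shHNRNPU library and 3 and 2 with shLUC. HNRNPAB had 2, 2, 1 and 2 summits with shHNRNPU and 1 and 1 with shLUC. Its best percentile was 77.8 in shLUC repeat 2 and 89.7 to 94.5 in the other libraries, and the groups overlapped.

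The H/F proteins bind runs of G. HNRNPF had the most summits of all the genes, 3, 3, 2 and 5 with shHNRNPU and 3 and 4 with shLUC, at 7 loci. Its window holds 2 listed starts, and its strongest summit was near one start in 4 libraries and near the other in shHNRNPU #1 repeat 2 and shLUC repeat 2. The best percentiles were 95, 90.4, 90.5 and 88.5 with shHNRNPU and 88.4 and 92.4 with shLUC, so the groups overlapped. HNRNPH1 had 1, 2, 1 and 1 summits with shHNRNPU and 1 and 2 with shLUC. HNRNPH2 had 2, 2, 1 and 1 against 2 and 1, and HNRNPH3 had 1 in each library. HNRNPH2 is the one gene of the 34 on chromosome X.

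Of the other hnRNPs, HNRNPC binds U-rich tracts, HNRNPK binds C-rich RNA, HNRNPL and HNRNPLL bind CA-rich RNA, HNRNPM binds GU-rich RNA, and HNRNPR is a further RNA-binding member. HNRNPK had best percentiles of 96.4 and 94.8 with shHNRNPU #1, 91.8 and 91.4 with shHNRNPU #2, and 86.4 and 84.9 with shLUC. The order was thus hairpin #1 above hairpin #2 above the control, with means of 93.6 ± 2.40 (SD, n = 4) and 85.6 ± 1.06 (SD, n = 2) and a difference of 7.96. In the HNRNPK sequence printed above, the strongest summit was at base 68, 82 and 87 in 3 shHNRNPU libraries and at base 82 and 196 in the shLUC libraries, and in shHNRNPU #1 repeat 1 it lay outside that stretch. Another gene, RMI1, starts within 1000 bp. HNRNPK had 1, 2, 1 and 1 summits with shHNRNPU and 1 and 1 with shLUC.

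HNRNPC and HNRNPR had 1 summit in each of the 6 libraries, with best percentiles of 97.8 to 99.8 and 98.0 to 99.5. HNRNPL had 1, 1, 1 and 2 summits with shHNRNPU and 2 and 1 with shLUC. HNRNPLL had 2, 3, 3 and 1 against 3 and 2, and HNRNPM had 1, 2, 1 and 1 against 2 and 1. None of these groups separated by number or by best percentile.

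The SR proteins carry a domain rich in arginine and serine and mostly promote inclusion of the exons they bind. SRSF6 showed the largest difference in best percentile among the genes whose groups did not overlap. Its values were 75.2 and 75.7 with shHNRNPU #1, 85.4 and 83.5 with shHNRNPU #2, and 64.7 and 60.9 with shLUC. Both hairpins were above both controls, by 17.2 in the mean (80.0 ± 5.27, SD, n = 4, and 62.8 ± 2.68, SD, n = 2). The summit itself was not at one place: in the order of those 6 values it lay 146, 150, 280, 410, 63 and 552 bp before the start. With windows of 500 bp this summit of shLUC repeat 2 is no longer counted, and a weaker one of that library, at percentile 12.3, takes its place. The difference was then 41.5, which reflects the edge of the window. With scores of at least 5 the difference was 27.1. SRSF6 had 1 summit in each library except shLUC repeat 2, which had 2.

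SRSF4 had best percentiles of 98.4, 98.6, 98.8 and 97.5 with shHNRNPU and 95.2 and 96.0 with shLUC. These groups did not overlap, and the difference was 2.71 (98.3 ± 0.552, SD, n = 4, and 95.6 ± 0.599, SD, n = 2). SRSF4 had 2, 1, 1 and 2 summits with shHNRNPU and 2 and 2 with shLUC. The summit near the start lay 93 to 163 bp upstream in all libraries.

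SRSF1, the founding member of the family, was one of the 3 genes with most summits, with 3, 3, 2 and 3 with shHNRNPU and 3 and 4 with shLUC. Its best percentiles were 92.3, 89.6, 95.2 and 93.8 against 84.2 and 92.4, and overlapped. SRSF11 had 2 summits in all 6 libraries, near 2 of its starts, and SRSF7, SRSF10 and SRSF12 had 1 in each. SRSF2 and SRSF9 had 1 in each library except shLUC repeat 1, which had 2. SRSF3 had 2, 2, 1 and 1 with shHNRNPU and 1 and 1 with shLUC, SRSF5 had 1, 1, 2 and 1 against 1 and 2, and SRSF8 had 1, 1, 1 and 2 against 1 and 1.

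SRSF8 and SRSF12 were the lowest SR genes besides SRSF6. SRSF12, a relative of SRSF10, had best percentiles of 78.1, 83.7, 54.0 and 75.7 with shHNRNPU and 56.2 and 70.7 with shLUC. SRSF8, a gene that arose as a retrotransposed copy of SRSF2, had 75.1, 88.4, 77.2 and 67.4 against 72.1 and 73.2. In both the groups overlapped, and the spread among the 4 shHNRNPU libraries (SD 13.0 and 8.69) exceeded the difference of the means for SRSF12, 9.45, and for SRSF8, 4.36.

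TRA2A and TRA2B bind GAA-rich enhancers. TRA2B had 1 summit in every library, and its best percentiles were 97.3, 95.4, 96.9 and 98.1 with shHNRNPU and 98.1 and 98.5 with shLUC. It was the gene with a lower value in all 4 shHNRNPU libraries, by 1.39 (96.9 ± 1.14, SD, n = 4, and 98.3 ± 0.247, SD, n = 2). The nearest values of the groups were 98.07 and 98.13, and the groups overlapped with scores of at least 5 and with lists of one size. TRA2B differed by -0.879 between the group means without shHNRNPU #1 repeat 2. The 6 summits lay within 28 bp of each other, from base 146 to base 174 of the printed sequence. TRA2A had 1, 2, 1 and 2 summits with shHNRNPU and 2 and 2 with shLUC, with best percentiles between 84.7 and 91.4.

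Among the 3′ splice site factors, U2AF1 stood apart from the other 33 genes. It had 0, 1, 0 and 1 summits with shHNRNPU and 1 and 0 with shLUC, so each hairpin, the control included, lacked a summit in 1 of its 2 libraries. Where called, its percentile was 63.8 in shHNRNPU #1 repeat 2, 57.2 in shHNRNPU #2 repeat 2 and 47.1 in shLUC repeat 1. These summits lay 318 to 382 bp after the start, within 1000 bp of the start of the long noncoding RNA LOC101928369. The reference holds a near-identical copy of U2AF1 on chromosome 21, LOC102724594, which had no summit in any library. Reads that fit both copies cannot be placed, and how the authors treated such reads is not given in the sources used here.

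U2AF2 had 2, 2, 2 and 3 summits with shHNRNPU and 3 and 4 with shLUC, at 6 loci, and its best percentiles of 91.4, 86.3, 93.9 and 90.7 overlapped those with shLUC, 82.3 and 89.4. SF3B1 had 1 summit in every library except shLUC repeat 1, which had 2, and best percentiles of 93.0 to 98.0.

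Summits of the 6 libraries were next matched to each other as loci, where a library was counted at a locus when a summit of its list fell no more than 250 bp from the centre. The 34 genes held 87 of the 123131 loci of the series. In all 6 libraries there were 28 of the 87 (32.2%), against 20.7% of all loci, and in a single library 24 (27.6%), against 38%. Of the 28 shared loci, 26 were within 1000 bp of a listed start or, where none is listed, of a gene end. The shared loci had a median percentile of 95.8 and the loci of a single library one of 15.9. At least 1 shared locus was found in 25 of the 34 genes.

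**Figure D3:**
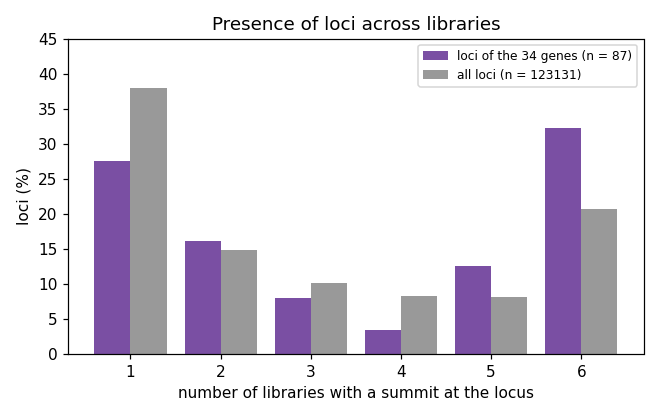
Share of loci (y axis, percent) by the number of libraries with a summit there (x axis, 1 to 6), for the 87 loci of the 34 genes (purple) and all 123131 loci (grey). Loci in all 6 libraries make up 32.2% of the purple bars and 20.7% of the grey bars.

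A locus was counted as lost when both shLUC libraries and none of the 4 shHNRNPU libraries had it. This held for 2 of the 87 loci (2.3%), in HNRNPF and SRSF12, close to the 1.93% of all loci. No locus was gained, that is present in all 4 shHNRNPU and neither shLUC library, and 0.88% of all loci were. Each count rests on both controls: without shLUC repeat 1 there were 6 lost and 4 gained loci, and without shLUC repeat 2 there were 8 and 2, where 10.4% and 10.6% of all loci were lost and 2.52% and 2.56% gained. Without shHNRNPU #2 repeat 1 there was 1 gained locus, in HNRNPAB, where 1.67% of all loci were gained.

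The lost locus of HNRNPF is at chr10:43401815, inside the gene and 4538 bp before the nearer start listed for its strand. Its percentile was 74.2 in shLUC repeat 1 and 60.4 in shLUC repeat 2, at positions 37 bp apart, so it was of middle rank. The nearest summit of an shHNRNPU library was 4412 bp away, and the locus was still lost when absence was required within 1000 bp and with each hairpin alone. The loci at the starts of HNRNPF were present in all 6 libraries.

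The lost locus of SRSF12, at chr6:89117620, was of another kind. The summit of shLUC repeat 2 lay there, 451 bp after the start, with a percentile of 70.7. The summit of shLUC repeat 1 lay 207 bp after the start, at the edge of the matching distance, and the shHNRNPU summits lay 196, 152, 177 and 64 bp after it. Every library thus had its summit in the first stretch of the gene, shLUC repeat 1 was 11 bp from the nearest shHNRNPU summit, and the locus was not lost when absence was required within 1000 bp. This locus is inside the gene, beyond the upstream sequence of SRSF12 printed above.

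Scores at the loci shared by all 6 libraries were compared with limma, on normal scores of the rank within each library over all 25519 such loci. A difference of 1 on this scale is 1 SD of the normal scores over loci. It is not a fixed number of percentiles, and near the top of a list it covers fewer of them than in the middle. Of the 28 loci of these genes, none had an adjusted p under 0.05, and of all loci 0% did, where the lowest adjusted p was 0.121 over all loci and 0.220 over these 28. At an unadjusted p under 0.05 there were 4 of the 28 (14.3%), against 14.4% of all loci. All 4 were higher with shHNRNPU, and of all loci past that threshold 1861 were higher and 1805 lower. The median difference was 0.12 over the 28 loci and 0.01 over all loci, with 20 of the 28 higher. HNRNPA0, HNRNPA1, HNRNPK, HNRNPL, SRSF5, SRSF6, SRSF8, SRSF12 and U2AF1 had no locus in all 6 libraries, so this fit did not cover them.

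The 4 loci were at U2AF2, HNRNPD, SRSF1 and SRSF4. The largest difference, 0.82 (95% interval 0.24 to 1.39, unadjusted p = 0.00998 and adjusted p = 0.220 with limma), was at chr19:55675157, 441 bp past the end of U2AF2 and within 1000 bp of the start of EPN1. Its percentiles were 82.8, 86.0, 86.5 and 73.0 with shHNRNPU and 68.1 and 60.9 with shLUC, which do not overlap. The HNRNPD locus, at the start that it shares with the long noncoding RNA HNRNPD-DT, differed by 0.69 (0.17 to 1.22) on the same scale.

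The SRSF1 locus of this kind is not at its own start but 619 bp past its other end, within 1000 bp of the start of VEZF1. There the percentiles were 79.0, 71.0, 64.3 and 60.1 with shHNRNPU and 49.4 and 55.3 with shLUC, and the difference in normal score was 0.62 (0.02 to 1.22). SRSF4 at its start differed by 0.53 (0.01 to 1.05). At the remaining 24 loci the intervals included 0, and the median distance from an estimate to its bound was 0.594. These intervals are unadjusted, so this distance is not the size that could have been called. The larger difference of 0.82 past the end of U2AF2 had an adjusted p of 0.220 with limma. Over these 24 loci the lowest bound was -1.18 and the highest 1.18.

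**Figure D4:**
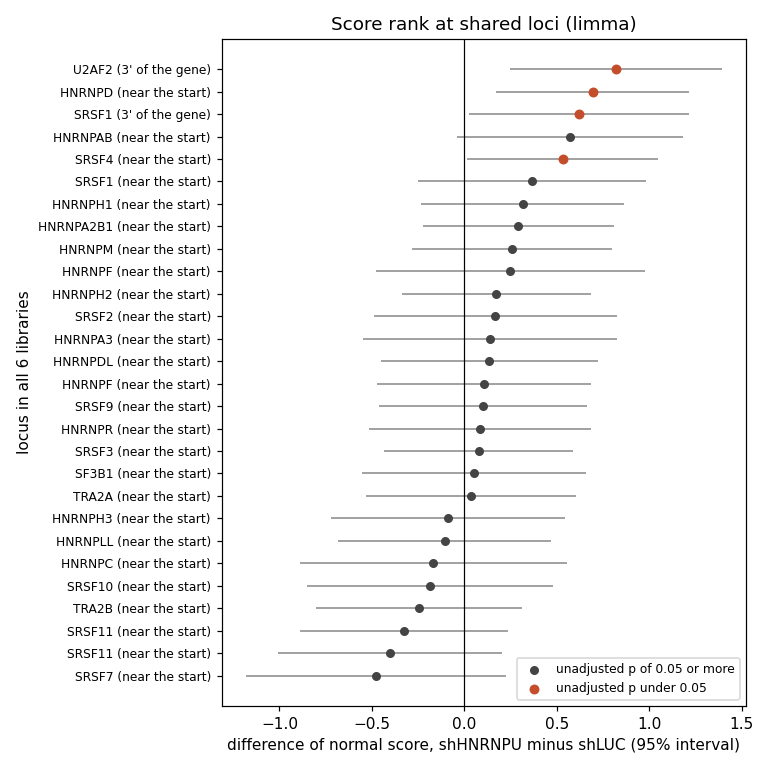
Difference in normal score of the within-library rank, shHNRNPU minus shLUC (x axis, points with 95% intervals from limma), at the 28 loci of these genes that were present in all 6 libraries (rows, named by gene and by place). Red points have an unadjusted p under 0.05, which are 4, and no point passed after adjustment over 25519 loci.

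Positions were compared as well, a measure added after the other results were known. The strongest summit lay within 250 bp of a listed start, by its median over libraries, in 27 of the 31 genes with a listed start and within 1000 bp in all 31, and in 26 of them it was upstream. The median distance was 135 bp. At the 28 shared loci the median distance between the outermost of the 6 summits was 69.5 bp, against 108 bp over all shared loci. The smallest was the 28 bp of TRA2B and the largest 408 bp, at the locus past the end of SRSF1.

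The positions of the groups did not overlap at 6 of the 28 loci (21.4%), against 14.1% of all shared loci. With matching within 100 bp, which changes the set of shared loci, they did not overlap at 2. The share over all loci at that setting is not given here, so the 2 cannot be set against it. By the strongest summit of each gene the positions did not overlap in 6 of 33 genes (18.2%), against 15.6% of genes with a summit in all 6 libraries. These genes were HNRNPAB, HNRNPH1, HNRNPC, SRSF5, SRSF12 and TRA2A, and the distance between the nearest summits of the groups was 41, 20, 91, 710, 11 and 2 bp. Without shLUC repeat 1 and without shLUC repeat 2 the number of loci was 11 and 13, where 37.2% and 37.6% of all shared loci did not overlap, and the number of genes 12 and 15, where 39.1% and 40.6% of all genes did not.

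SRSF5 was the gene with a large displacement. Its strongest summit was 71, 71, 85 and 71 bp before the start with shHNRNPU, and 664 and 639 bp after it with shLUC. The groups used different loci as the strongest: the upstream locus was called in all 4 shHNRNPU libraries and in shLUC repeat 2, and the downstream locus in both shLUC libraries and shHNRNPU #2 repeat 1. The best percentiles of SRSF5 overlapped, at 95.3, 91.7, 95.1 and 92.5 against 89.7 and 97.1. A long noncoding RNA, LOC100289511, starts within 1000 bp.

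**Figure D5:**
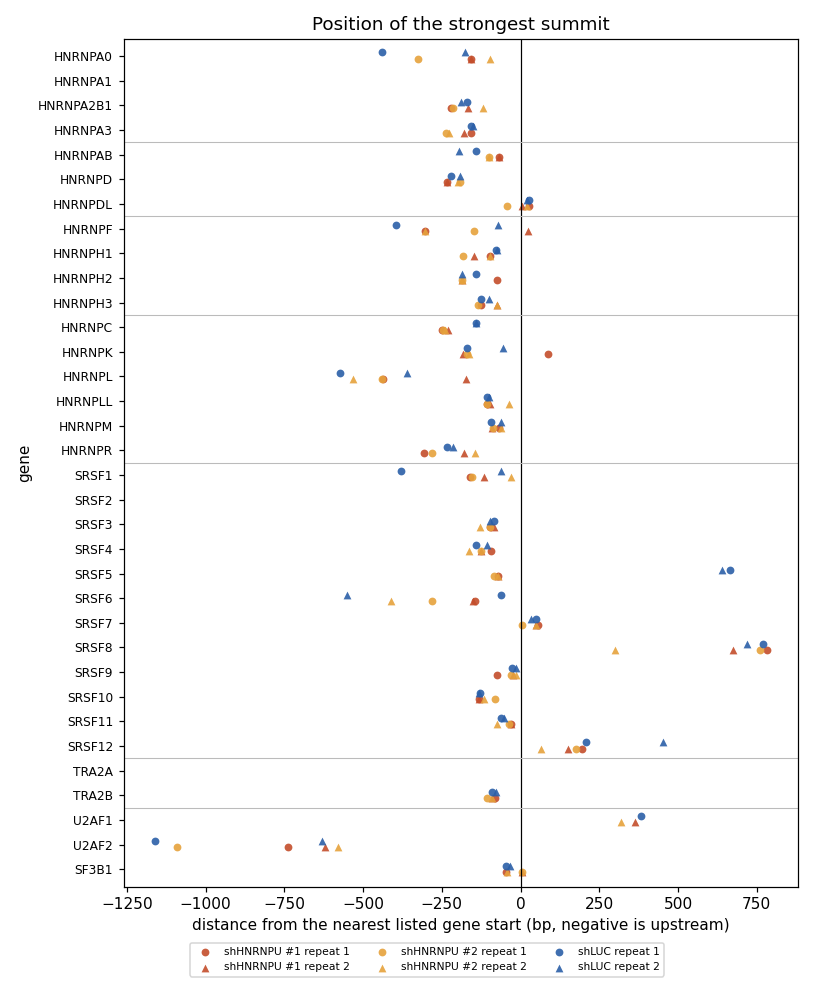
Distance of the strongest summit from the nearest listed gene start (x axis, bp, negative is upstream) for each gene (rows) and library (points: red shHNRNPU #1, orange shHNRNPU #2, blue shLUC, circle repeat 1, triangle repeat 2). HNRNPA1, SRSF2 and TRA2A have no listed start and no points. Most genes have their 6 summits together just upstream, and SRSF5 has the 2 blue points at 639 and 664 and all 4 others between -85 and -71.

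Some of these starts are shared with another gene. In 9 genes a locus near the gene's own start and present in all 6 libraries was within 1000 bp of the start of a different gene, such as HNRNPA2B1 with CBX3, HNRNPDL with ENOPH1, SRSF2 with MFSD11, SRSF9 with DYNLL1 and SRSF11 with LRRC40. In 2 more, SRSF1 and U2AF2, such a locus lay past the end of the gene, near the starts of VEZF1 and EPN1. The signal there cannot be divided between the neighbours.

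The promoters of the genes were rich in CG. For each of the 31 genes with a listed start a single start was used (250 bases before to 50 after). Where a gene has several, it was the one nearest its strongest summit in shLUC repeat 2. No such choice was made among the 35116 starts of the reference, which also include starts of long noncoding RNAs. The 2 sets of promoters therefore differ in kind. The median number of CG pairs was 32, against 14 over all those starts, and the median GC content 66.3% against 58.7%. Searched on both strands, CCAAT was in 45.2% of these promoters and 34.6% of all, GGGCGG in 61.3% and 45%, CGGAAG in 32.3% and 19.5%, TATAAA in 12.9% and 11.5%, ATGGCGG in 12.9% and 5.55%, GCATGCG in 9.68% and 3.91%, and TGACGTC in 6.45% and 3.45%. The fewest CG pairs were in SRSF8, with 3, and the most in SRSF4, with 48. SRSF8 was also among the genes of lowest best percentile, as were SRSF12 with 37 CG pairs and SRSF6 with 33. U2AF1 had 43 CG pairs and the fewest summits.

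The rest of the splicing machinery was read through a list of 68 genes of the U1, U2 and U4/U6.U5 particles, splicing regulators and SR protein kinases. All 68 had a summit in all 6 libraries, with a median best percentile of 89.97, and none had fewer or more summits by the rule used above. The best percentile was higher in all 4 shHNRNPU libraries for 17 (25%), against 12.7% of all genes with a summit, and lower for 3 (4.41%), against 9.37%. The list was made with earlier results known, so these shares are a description and were not tested. Of their 208 loci, 2 were lost, in PRPF8, the core protein of the catalytic centre, and in RBFOX2, a regulator of alternative exons, and 2 were gained, in SF3A2 and SF3B3 of the U2 particle. Each count is 0.962% of the loci of the list, against 1.93% lost and 0.88% gained over all loci. No locus of the list passed limma.

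As a check of the cell type, 8 of 8 pluripotency genes (POU5F1, SOX2, NANOG, LIN28A, LIN28B, DPPA4, SALL4 and ZIC2) had a summit in all 6 libraries. So did 9 of 10 markers of other cell types, PAX6 and GATA4 among them, and ALB, the liver albumin gene, had none in any. The median best percentile was 83.2 over the pluripotency genes and 66.8 over the markers of other cell types, with ALB entered as 0. Over all genes with a summit it was 83.4. The lists overlapped, with NANOG at 64.4 and GATA4 at 79.3, so these values do not by themselves tell the cell type. Fewer summits in all 4 shHNRNPU than in both shLUC libraries were found for SOX2, NANOG and PTPRC and more for GATA4. Those with fewer were 25% of the pluripotency genes and 10% of the other markers, against 3.27% of all genes. Those with more were 0% and 10%, against 2.3%. By best percentile ZIC2 was higher and DPPA4 and PAX6 were lower. Of the pluripotency genes 12.5% were higher and 12.5% lower, and of the other markers 0% and 10%, where 12.7% and 9.37% of all genes were. NANOG and PTPRC each had 1 lost locus and GATA4 had 2 gained loci. Of the 40 loci of the pluripotency genes 2.5% were lost and 0% gained. Of the 62 loci of the other markers 1.61% were lost and 3.23% gained, where 1.93% and 0.88% of all loci were. The part of these markers in the results above was not tested.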

How the data were processed

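The 6 libraries were grouped by the hairpin and repeat number in their titles. The authors deposited a list of summits per library, called separately in each, with a score that by its layout and values is the −log10 of the q-value within that library and starts at 1.30 to 1.31. The submitters' processing notes name cutadapt, Bowtie2, SAMtools, MACS2 and deepTools and the build hg38. Versions, settings and read filters, the Tn5 offset included, are not given in the sources used here. The article that names the series describes other libraries and was used for style alone. The lists hold no read counts, so depth is unknown, a limit of detection was not computed, and precision rests on the number of libraries.

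The 34 genes and the gene lists were chosen with earlier results of these data known. Gene extents and starts came from the RefSeq tables of GRCh38.p14. All 34 genes matched by symbol, and 31 had a listed start. Exons and introns were not used here. A gene window was the gene and 2000 bp on either side. Score percentiles were taken within each library, and a gene without a summit was given 0. Loci were built by taking the summit of highest percentile first and absorbing summits within 250 bp, so a summit near 2 centres could be matched to both. Groups were called not overlapping when all 4 values lay above or below both controls. Tests were exact two-sided permutations of single genes, with Benjamini-Hochberg adjustment over 17335 genes, and limma 3.58.1 (lmFit, eBayes) on normal scores, adjusted over 25519 loci and called at 0.05. The permutation test was checked only for its number of choices and its smallest p. Limma was run on simulated loci whose shift was larger than any difference at the loci of these genes. All genes are named, with values in every library for those whose groups did not overlap, those with a lost, gained or called locus, those without a summit in some library, and the 3 with most summits. Values of other genes were added after they had been seen, as were the comparisons of positions. Alternatives were windows of 500 and 5000 bp or around starts only, scores of at least 5, lists of one size, matching within 100 and 500 bp, absence within 1000 bp, each hairpin alone, log2 of the score, 3 groups, leaving out each library, a background of genes open in all 6 libraries, and a replicate block. The tools were R 4.3.3, Python 3.11.15, matplotlib 3.10.9, scipy 1.17.1, pandas 2.3.3 and numpy 2.4.6.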

Additional observations from a re-analysis of the deposited data

How the results depend on the processing

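Of 279 recomputed values, 237 stayed within the set limits and 42 moved. A change of sign was looked for only in the differences of single genes and loci, and none of those changed sign. The difference of share did, from -0.00305 to 0.000562 without shHNRNPU #2 repeat 1, which was within its set limit. With scores of at least 5, 1 gene (HNRNPF) had fewer summits and 0 had a lower best percentile, and with lists of one size 0 had a lower best percentile. Loci lost were 1 with matching within 500 bp, 1 with absence within 1000 bp and 4 with hairpin #2 alone. Loci gained were 1 with matching within 100 bp and 2 with hairpin #1 alone. Loci whose positions did not overlap were 2 with matching within 100 bp. For these settings the shares over all genes and loci are not given here, so these counts have no background to be read against. Leaving out each library in turn gave 0 to 4 genes with fewer summits, 0 to 1 with more, 6 to 14 with a higher and 1 to 6 with a lower best percentile, 2 to 8 lost and 0 to 4 gained loci, 6 to 13 loci and 6 to 15 genes with positions that did not overlap, and a difference of share from -0.00742 to 0.000562. With 1 control left, groups separate more easily, and the counts over all genes and loci rose too. No alternative gave a locus of these genes with an adjusted p under 0.05 in limma, and the lowest ranged from 0.177 to 0.472.

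Repeat numbers did not pair the libraries: the correlations of repeat 1 minus repeat 2 between groups were -0.0331, -0.0125 and -5.06e-06. With the replicate block, the lowest adjusted p was 0.249, 2 of the 28 loci had an unadjusted p under 0.05 in place of 4, 0 genes had an exact permutation p under 0.05, and the smallest p possible was 0.222. With a background of genes open in all 6 libraries, 13.4% of genes were higher and 9.64% lower in best percentile. The number of libraries limits what could be seen, and unknown depth means that a missing summit may be an open site that was not called.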
